A study of Mus musculus with 9 samples.

Results

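Mural cells wrap the walls of blood vessels, as pericytes along capillaries and as smooth muscle cells around arteries and veins. Genes that mark them (Pdgfrb, Cspg4, Mcam, Notch3, Rgs5, Kcnj8, Abcc9, Acta2, Myh11 and Tagln) were followed in inguinal white adipose tissue, a subcutaneous fat pad of the mouse groin. The 10 genes were taken by symbol, each has 1 array row that names it alone, and all 10 passed the filter on low values, which 16898 of 30710 named genes passed. Total RNA of the pads was hybridised to 9 arrays, 3 in each of 3 groups. The cold control mice carried Adiponectin-rtTA, TRE-Cre and intact Zfp423 (Zfp423+/+) and spent the last 14 days at 6 °C. Knockout mice carried Adiponectin-rtTA, Tre-CRE and Zfp423loxP/loxP and stayed at room temperature, as did control mice, which had the cold group's genotype. All 3 groups carried the rtTA and Cre transgenes, were reared at room temperature to 8 weeks of age and then ate doxycycline chow for 28 days. Whether each array holds a mouse of its own is not stated, and the p-values therefore reflect array-to-array spread alone, which could be technical.

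Endothelial cells draw pericytes to a vessel by secreting PDGF-B, which binds the receptor encoded by Pdgfrb, and Notch ligands on endothelial cells activate NOTCH3 on the mural cell. Contractile smooth muscle is built on smooth muscle actin and myosin, and channels and G protein regulators set its tone. Zfp423 is a zinc-finger factor that restrains the thermogenic programme of white adipocytes, and mural cells of fat are also known to express it. Cre in these mice depends on a transgene named for adiponectin, an adipocyte gene, and mural cells were not its stated target.

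Zfp423 read 7.56, 8.15 and 8.04 on the knockout arrays, against 8.74, 8.22 and 8.40 on the control arrays, in log2 expression units, the scale of every level below. The knockout arrays all lay below the control arrays, by 0.53 ± 0.20 (SE) on average, a difference that did not pass (limma, adjusted p = 0.255). In the cold control pads it read 8.83, 8.72 and 8.40, overlapping the control values. Each array reads a whole pad, so fewer cells of a type and less RNA per cell cannot be told apart. Within each group 1 array lay between the other 2 more often than either of them did. It was cold control 2 for 41.9% of the tested genes, knockout 3 for 61.8% and control 3 for 52.4%, and for 8, 7 and 9 of the 10 markers, ties left out of all counts. The file label of cold control 3 has another prefix than the rest, and whether that marks a batch is not stated.

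None of the mural markers passed the test. Against control, the cold control means of the contractile genes Acta2, Myh11 and Tagln were lower (-0.34 to -0.74), as were those of Mcam (-0.43) and Notch3 (-0.04). Those of Rgs5, Kcnj8, Abcc9 and Cspg4 were higher by 0.37 to 0.79 and that of Pdgfrb by 0.16; differences between the roles were not tested. The 3 comparisons share their groups and are not independent of each other. With limma (adjusted p under 0.05 over all 16898 genes), 0 of the 10 markers passed in any comparison, where 1.51% of all genes passed for cold control against control, 0.367% for knockout against control and 2.40% for cold control against knockout. With 1 array left out these all-gene shares rested on 23 to 985 genes, against 255 with all arrays, for cold control against control, on 0 to 833, against 62, for knockout against control, and on 14 to 2694, against 405, for cold control against knockout. At an unadjusted p under 0.05, 6 markers differed between cold control and control, 3 higher (Cspg4, Kcnj8, Abcc9) and 3 lower (Acta2, Myh11, Tagln), 1 between knockout and control (Mcam, lower) and 2 between cold control and knockout (Rgs5 and Cspg4, both higher). Beside these stand, over all genes, 9.31% higher and 11.0% lower for cold control against control, 8.86% and 7.31% for knockout against control, and 10.1% and 16.7% for cold control against knockout. The count of 6 was 3 without cold control 2, 4 without cold control 1, control 2 or control 3, 5 without knockout 3 and 8 without control 1. The count of 1 became 0 without knockout 1, knockout 3, cold control 2 or control 3, was 2 without knockout 2 and 4 without control 2, and without control 1 the 1 marker was Pdgfrb, higher, in place of Mcam. The count of 2 became 4 without cold control 3. Without the 3 in-between arrays 0 markers reached an unadjusted p under 0.05 in any comparison, where 4.68% of all genes did for cold control against control, 4.08% for knockout against control and 5.83% for cold control against knockout. That setting keeps the 2 arrays of each group that are more often the outer ones. Keeping them tends to widen the spread, and fewer arrays remain, so this 0 cannot show that the differences rest on the arrays left out.

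**Figure D1:**
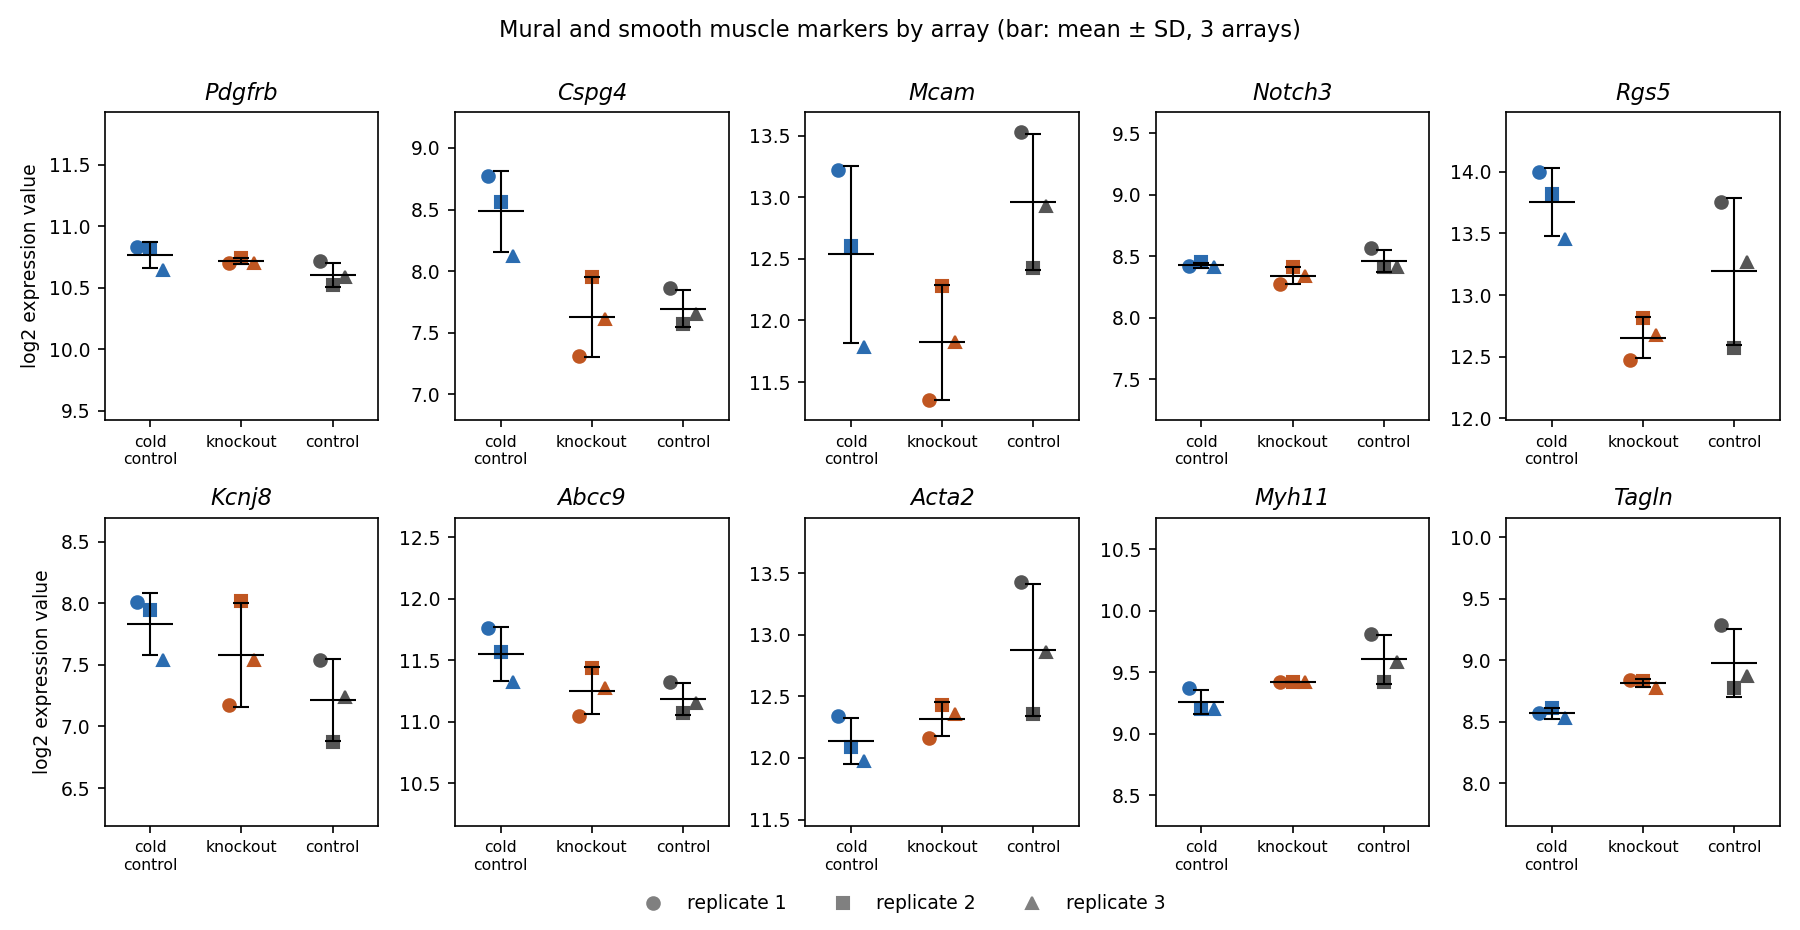
Log2 expression value (vertical axis, 10 panels, each spanning the same number of log2 units) of the markers on the 9 arrays, with cold control, knockout and control from left to right. Points are arrays, shaped by replicate, and bars are mean ± SD of 3 arrays; the 3 contractile genes in the lower row are lowest in cold control, while Cspg4 and Rgs5 are highest there.

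Of the contractile genes, Acta2 encodes smooth muscle alpha-actin, the thin-filament actin of smooth muscle. Its values were 12.34, 12.09 and 11.98 in cold control, 12.16, 12.43 and 12.35 in knockout and 13.43, 12.35 and 12.86 in control pads. The cold control arrays all lay below the control arrays, but the nearest pair was only 0.013 apart, and the knockout arrays overlapped both groups. Cold control minus control was -0.74 ± 0.25 (SE; limma, adjusted p = 0.178), a 0.597-fold level. Knockout minus control was -0.57 ± 0.25 (adjusted p = 0.328), and cold control minus knockout was -0.18 ± 0.25 (adjusted p = 0.679).

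Myh11, the smooth muscle myosin heavy chain, had 9.37, 9.20 and 9.20 in cold control, the single value 9.42 on all 3 knockout arrays, and 9.81, 9.42 and 9.58 in control pads. Control 2 holds the same 9.42, to the last deposited digit, so the spread of the knockout group is listed as 0 and may be understated. The cold control arrays lay below every knockout and control array, with a gap of 0.042 in both comparisons. The mean difference was -0.34 ± 0.10 against control (limma, adjusted p = 0.136) and -0.16 ± 0.10 against knockout (adjusted p = 0.342), and knockout minus control was -0.19 ± 0.10 (adjusted p = 0.405).

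Tagln encodes transgelin, an actin-binding protein of smooth muscle. It read 8.57, 8.61 and 8.53 in cold control, 8.84, 8.83 and 8.78 in knockout and 9.29, 8.77 and 8.87 in control pads. All 3 cold control arrays were below all 6 others, with gaps of 0.16 to each of the other groups. Cold control minus control was -0.41 ± 0.12 (limma, adjusted p = 0.150), cold control minus knockout -0.24 ± 0.12 (adjusted p = 0.247) and knockout minus control -0.16 ± 0.12 (adjusted p = 0.561). The 3 contractile genes shared a direction in every comparison (0 of 3 higher), and control 1 was the highest of the 9 arrays for each of them.

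Promoters of 7 of the 10 markers were read in the RefSeq table of mouse assembly GRCm38.p6. Each covers the 250 bases before the start of its gene. Those of Pdgfrb, Myh11 and Tagln were not read, so Acta2 was the only contractile gene among the 7. The 7 were searched for the CArG box, the site of serum response factor that many smooth muscle genes use. They were also searched for TGGGAA on either strand, the core read by the Notch partner RBPJ. The strict CArG box was in 0 of the 7, against 1.47% of all 32851 promoters; with at most 1 G or C allowed in its 6-base A/T core it was in 1, Acta2, against 8.59% of all promoters. Acta2 is shown for its 2 relaxed boxes (capitals), which begin 84 and 34 bases before the start, and Rgs5 and Cspg4, which hold neither motif, for the largest differences between cold control and knockout. Acta2 lies at chr19:34255374-34255623 (minus strand), Rgs5 at chr1:169655251-169655500 (plus strand) and Cspg4 at chr9:56864854-56865103 (plus strand).
Acta2: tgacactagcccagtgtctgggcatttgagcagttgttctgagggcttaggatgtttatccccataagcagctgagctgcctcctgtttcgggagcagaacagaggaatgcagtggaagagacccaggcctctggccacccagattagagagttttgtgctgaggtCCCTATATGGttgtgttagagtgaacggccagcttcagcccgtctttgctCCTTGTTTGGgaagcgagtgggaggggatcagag
Rgs5: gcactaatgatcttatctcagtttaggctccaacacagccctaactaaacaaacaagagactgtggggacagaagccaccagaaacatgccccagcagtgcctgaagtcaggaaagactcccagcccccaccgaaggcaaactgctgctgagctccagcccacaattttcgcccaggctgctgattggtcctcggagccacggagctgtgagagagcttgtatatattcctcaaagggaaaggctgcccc
Cspg4: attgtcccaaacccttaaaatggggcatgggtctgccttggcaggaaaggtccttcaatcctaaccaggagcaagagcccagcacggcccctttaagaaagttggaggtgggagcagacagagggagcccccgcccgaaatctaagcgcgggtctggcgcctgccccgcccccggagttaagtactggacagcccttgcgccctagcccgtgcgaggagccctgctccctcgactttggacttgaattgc
TGGGAA was in 2 of the 7, Acta2 (27 bases before the start, overlapping the second box) and Abcc9 (221 bases before it), against 21.6% of all promoters. These are matches of letters in a short window, and binding at them was not tested here.

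Rgs5, a G protein regulator that is one of the most used pericyte markers, had 14.00, 13.82 and 13.46 in cold control, 12.48, 12.81 and 12.68 in knockout and 13.75, 12.57 and 13.26 in control pads. Every cold control array lay above every knockout array, with a gap of 0.65, and the control arrays overlapped both groups. Cold control minus knockout was 1.10 ± 0.29 (limma, adjusted p = 0.0811), a 2.15-fold level. Cold control minus control was 0.56 ± 0.29 (adjusted p = 0.316) and knockout minus control -0.54 ± 0.29 (adjusted p = 0.413). Control 2 (12.57) sat among the knockout arrays; without it the difference between cold control and knockout passed (adjusted p = 0.0419), since the spread is shared by the 3 groups.

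Kcnj8 and Abcc9 encode Kir6.1 and SUR2, the pore and the regulatory subunit of the ATP-sensitive potassium channel of vascular smooth muscle, and they are neighbours on chromosome 6 in the RefSeq table. Kcnj8 read 8.01, 7.95 and 7.54 in cold control, 7.18, 8.02 and 7.54 in knockout and 7.54, 6.87 and 7.24 in control pads. Abcc9 read 11.77, 11.57 and 11.33 in cold control, 11.05, 11.44 and 11.27 in knockout and 11.33, 11.07 and 11.15 in control pads. For both, the cold control arrays stood above the control arrays only just, by 0.0051 for Kcnj8 and 0.00023 for Abcc9, and the knockout arrays overlapped both groups. The mean of cold control was higher by 0.62 ± 0.26 for Kcnj8 (limma, adjusted p = 0.241) and by 0.37 ± 0.14 for Abcc9 (adjusted p = 0.211) than that of control. Knockout minus control was 0.36 ± 0.26 for Kcnj8 and 0.07 ± 0.14 for Abcc9 (adjusted p = 0.528 and 0.842), and cold control minus knockout was 0.25 ± 0.26 and 0.30 ± 0.14 (adjusted p = 0.553 and 0.218). Over the 9 arrays the channel subunits correlated at r = 0.907, a description of arrays that share groups and processing.

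Among the surface proteins, Cspg4 encodes NG2, a proteoglycan of pericytes and of some progenitor cells. It had 8.77, 8.56 and 8.12 in cold control, 7.31, 7.96 and 7.62 in knockout and 7.87, 7.57 and 7.65 in control pads. Cold control stood above both other groups on every array, by at least 0.25 over control and 0.17 over knockout, while knockout and control overlapped. Cold control minus control was 0.79 ± 0.21 (limma, adjusted p = 0.120), a 1.73-fold level, and cold control minus knockout 0.86 ± 0.21 (adjusted p = 0.0729), a 1.81-fold level. Without knockout 2, its highest knockout array, cold control minus knockout was 1.02 and passed (adjusted p = 0.0290). Knockout minus control was -0.07 ± 0.21, with a 95% interval from -0.56 to 0.43.

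Mcam encodes CD146, an adhesion molecule of mural and endothelial cells. Its values were 13.22, 12.60 and 11.79 in cold control, 11.36, 12.28 and 11.83 in knockout and 13.53, 12.43 and 12.93 in control pads. Every knockout array was below every control array, by at least 0.14, and the cold control arrays ran across both groups. Knockout minus control was -1.14 ± 0.44 (limma, adjusted p = 0.261), a 0.454-fold level and the largest difference of a marker in that comparison. Cold control minus control was -0.43 ± 0.44 (adjusted p = 0.608) and cold control minus knockout 0.71 ± 0.44 (adjusted p = 0.332).

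Pdgfrb, the PDGF-B receptor, and Notch3, the mural Notch receptor, had the narrowest ranges. Pdgfrb read 10.83, 10.82 and 10.64 in cold control, 10.70, 10.75 and 10.70 in knockout and 10.71, 10.52 and 10.58 in control pads. Notch3 read 8.42, 8.45 and 8.41 in cold control, 8.28, 8.41 and 8.34 in knockout and 8.57, 8.41 and 8.41 in control pads. All 3 groups overlapped for both genes. The 95% intervals of knockout minus control ran from -0.05 to 0.28 for Pdgfrb and from -0.25 to 0.01 for Notch3, and those of cold control minus control from -0.0052 to 0.32 and from -0.17 to 0.10. Those of cold control minus knockout ran from -0.12 to 0.21 for Pdgfrb and from -0.05 to 0.22 for Notch3. Notch3 holds the value 8.41 on 4 arrays, exactly repeated; 9563 of the 16898 tested genes (56.6%) repeat a value on at least 2 of the 9 arrays, 5 of the markers among them, and within-group spreads may be understated there.

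**Figure D2:**
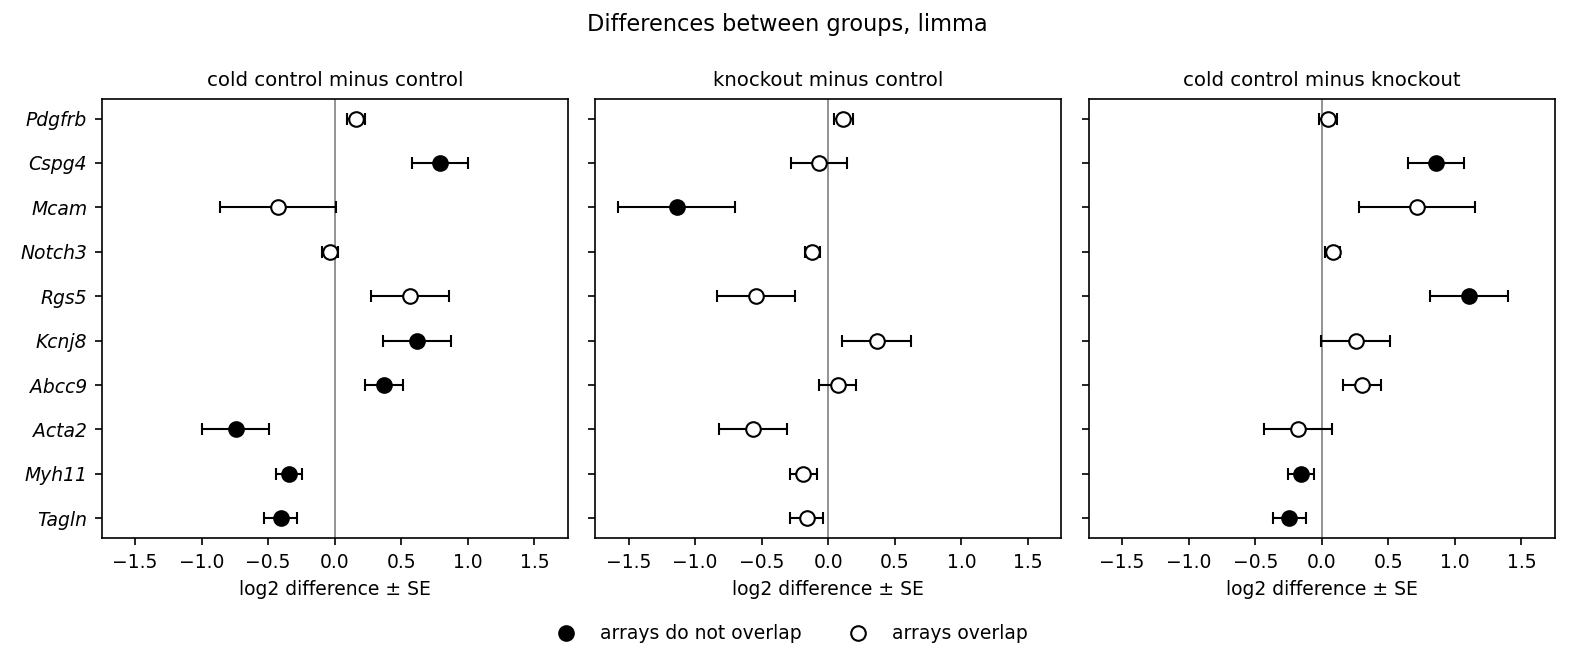
Log2 difference ± SE (horizontal axis) of the 10 markers in the 3 comparisons, from limma over 9 arrays. Filled points mark genes whose arrays do not overlap between the groups; the contractile genes at the bottom lie left of 0 in all panels, and the filled points with the largest differences are Mcam (-1.14, knockout minus control) and Rgs5 (1.10, cold control minus knockout).

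Counted by overlap, 3 markers were higher on all cold control arrays than on any control array (Cspg4, Kcnj8, Abcc9; 14.6% of all genes) and 3 lower (Acta2, Myh11, Tagln; 18.1% of all genes). Against knockout, cold control was apart upwards for 2 (Rgs5, Cspg4; 12.3% of all genes) and downwards for 2 (Myh11, Tagln; 20.0% of all genes). Knockout was apart from control upwards for 0 (9.31% of all genes) and downwards for 1, Mcam (8.01% of all genes). The median difference of the markers was 0.06 for cold control minus control, -0.14 for knockout minus control and 0.17 for cold control minus knockout, where the medians of all genes were -0.02, 0.02 and -0.03. In size, without sign, the medians were 0.42, 0.17 and 0.25, against 0.13, 0.12 and 0.15 over all genes. The markers are bright rows, at percentiles 76 to 96 of all row means. The all-gene medians also take in dimmer rows, and 66 of the tested genes have 1 value on all arrays. Genes of like level were not set apart.

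Inside a group, the markers moved from array to array together. Ties left out, control 1 was the highest control array for 10 of 10 markers and control 2 the lowest for 9, cold control 3 was the lowest of its group for 10, and knockout 1 the lowest of its group for 7. This order was not particular to the markers. Mean levels of the endothelial, adipocyte and Schwann cell lists, described below, followed it on all of these arrays. Macrophage and lymphocyte levels ran in the opposite order on them, and fibroblast, skeletal muscle and thermogenic levels matched in part. After each array was set against its group mean, all 45 marker pairs correlated positively, from 0.37 to 0.986 with a median of 0.776; these rest on 9 arrays, share labelling and processing, and are given as a description. Over the 9 arrays without that step, 32 of the 45 were positive, from -0.48 for Cspg4 with Tagln to 0.961 for Acta2 with Myh11. Cspg4 and Abcc9 correlated at 0.951. Pairs of other genes were not counted, so no all-gene share stands beside these pairs.

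**Figure D3:**
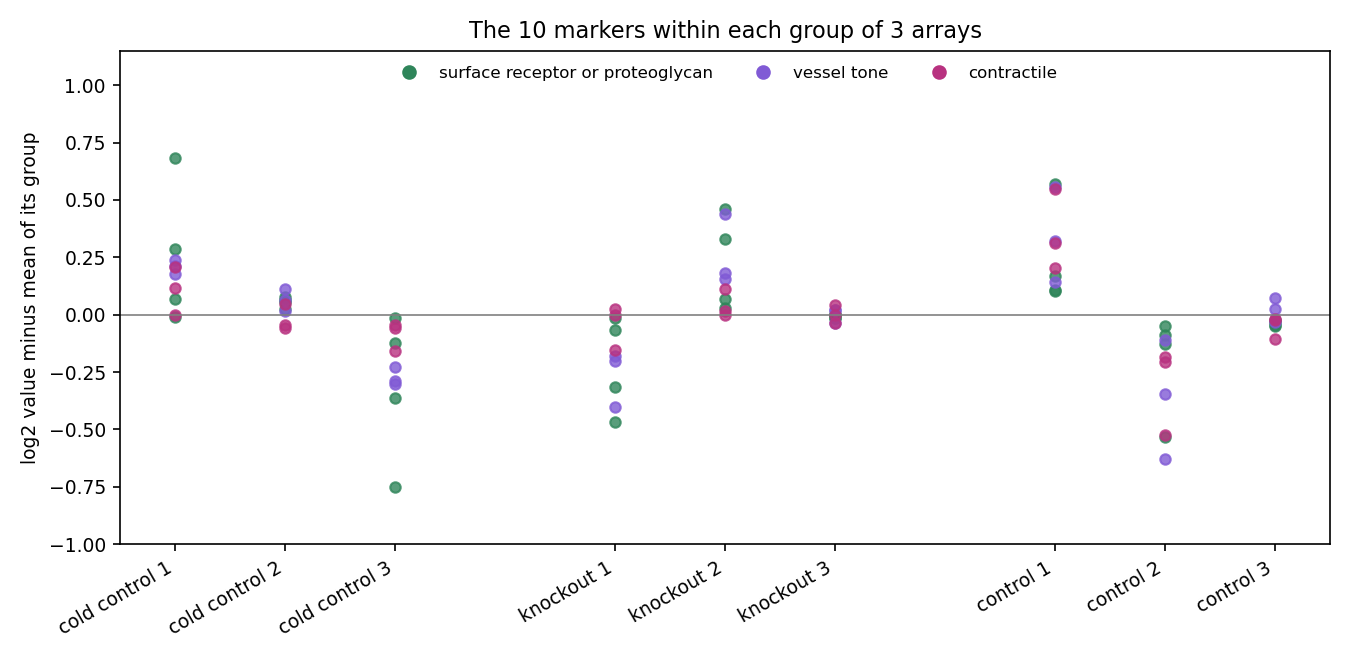
Log2 value minus the mean of its own group (vertical axis) for the 10 markers on each of the 9 arrays, coloured by role. All points of control 1 lie above 0 and all points of control 2 and cold control 3 lie below it, and knockout 3 and control 3 lie close to 0.

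Further genes of the same cells gave few calls. Of 17 tested smooth muscle contractile genes, 0 passed in any comparison. Their medians were -0.02 for cold control minus control, -0.01 for knockout minus control and -0.07 for cold control minus knockout. Some of these rows are nearly flat and could show little difference. Myh10 spanned 0.05 in cold control and 0 in knockout and in control, and Itga8 spanned 0.0035 in control and 0 in cold control and in knockout. Tpm2, a tropomyosin also made by skeletal muscle, was -0.95 ± 0.72 in cold control minus control. It read 10.15, 9.55 and 7.24 in cold control and 9.92, 10.07 and 9.81 in control pads, so cold control 3 was far below the rest. Smtn, the smooth muscle protein smoothelin, was 0.52 ± 0.17 in cold control minus knockout (limma, adjusted p = 0.121). Of 18 tested pericyte genes, Zfp423 itself among them, 1 passed: Sparcl1, a matricellular protein of vessel walls. Sparcl1 was higher in cold control than in knockout, a comparison in which 2.40% of all genes passed. It read 15.39, 15.28 and 15.05 in cold control, 14.06, 14.42 and 14.21 in knockout and 15.17, 14.80 and 14.97 in control pads. Its 3 knockout arrays were lower than the other 6, and cold control minus knockout was 1.01 ± 0.14 (limma, adjusted p = 0.0203). Against control neither group passed: cold control minus control was 0.26 ± 0.14 and knockout minus control -0.75 ± 0.14 (limma, adjusted p = 0.329 and 0.0717).

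Among 13 tested Notch partners 1 passed, in 1 comparison: Dll4, an endothelial Notch ligand. Dll4 was higher in cold control than in knockout by 0.83 ± 0.11 (limma, adjusted p = 0.0176), a comparison in which 2.40% of all genes passed. Against control neither group passed: cold control minus control was 0.39 ± 0.11 and knockout minus control -0.44 ± 0.11 (limma, adjusted p = 0.124 and 0.110). Its values were 9.67, 9.58 and 9.59 in cold control, 8.61, 8.89 and 8.85 in knockout and 9.43, 9.13 and 9.12 in control pads, so that the 3 groups did not overlap. Jag1, another ligand, was -0.50 ± 0.16 in knockout minus control (adjusted p = 0.193), and the target gene Hey1 was 0.56 ± 0.20 in cold control minus control (adjusted p = 0.194). The receptor gene Notch2 went the other way from Hey1, with -0.53 ± 0.21 in cold control minus control (limma, adjusted p = 0.229). The calls of Sparcl1 and Dll4 were lost under 7 and 6 of 19 alternatives, 1 of which (without the 3 in-between arrays) called 0 of all genes. Leaving out 1 array ended that of Sparcl1 without knockout 1, knockout 3, cold control 1, cold control 2 or control 3 (adjusted p = 0.0509, 0.106, 0.0702, 0.112 and 0.0619). For Dll4 the same held without knockout 3 or any 1 cold control array (adjusted p = 0.0858, and 0.0645, 0.0895 and 0.0519).

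Of 14 tested PDGF and angiopoietin partners 0 passed. Pdgfb, the ligand of the Pdgfrb product, read 8.54, 8.06 and 7.69 in cold control, 7.11, 8.13 and 7.55 in knockout and 7.41, 7.19 and 7.32 in control pads. Its cold control arrays lay above the control arrays, and the difference was 0.79 ± 0.29 (limma, adjusted p = 0.202). Pdgfd, another PDGF ligand, was 1.31 ± 0.41 and Angpt1, the ligand of the endothelial receptor Tek, 1.11 ± 0.35 in cold control minus knockout (adjusted p = 0.111 and 0.110). Of 6 tested channel and tone partners 0 passed; Rgs2, a G protein regulator, was 1.00 ± 0.31 in knockout minus control (adjusted p = 0.193), and Kcnj11 and Abcc8, the channel subunits of the pancreatic beta cell, were below the filter on low values.

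Other cell types of the pad were read on the same arrays through 9 lists. The 14 tested endothelial markers gave 0 calls, with mean list levels of 10.81 to 11.05 in cold control, 10.01 to 10.88 in knockout and 10.38 to 10.89 in control pads; Mcam is also made by these cells. Fibroblast and progenitor markers (10 tested, 0 passed) had mean levels of 10.22 to 10.38 in cold control and 10.11 to 10.80 in knockout, both below the 10.83 to 11.52 of control pads. Skeletal muscle markers (13 tested, 0 passed) spread furthest, from 6.98 on cold control 3 to 11.62 on cold control 1, with 9.71 to 11.53 in knockout and 11.00 to 11.59 in control pads. Mammary epithelial and myoepithelial genes were below the filter for 12 of 13, the keratins Krt5 and Krt14 of myoepithelium included, and Oxtr was the one tested.

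Adipocyte markers (11 tested, 0 passed) ran from 16.52 to 16.66 in cold control, 15.79 to 16.46 in knockout and 16.28 to 16.68 in control pads, and knockout 1 was lowest. Thermogenic adipocyte genes (10 tested) rose for 8 in cold control and for 7 in knockout against control, Ucp1 by 6.61 ± 0.47 and 6.90 ± 0.47 (adjusted p = 0.00226 and 0.00863). Of all genes, 1.51% passed for cold control against control and 0.367% for knockout against control. Macrophage (10 tested) and lymphocyte markers (8 tested) gave 0 calls, with medians of -1.17 and -1.24 in cold control minus control. Mean macrophage levels ran from 8.80 to 9.03 in cold control, 8.92 to 10.48 in knockout and 9.63 to 10.55 in control pads, and mean lymphocyte levels from 9.40 to 9.87, 10.23 to 12.04 and 10.26 to 11.42 in cold control, knockout and control pads. Of 4 tested Schwann cell markers S100b rose (2.65 ± 0.32, adjusted p = 0.0150) and Mbp fell (-0.41 ± 0.07, adjusted p = 0.0393) in cold control against control, calls that were lost under 8 and 12 of the 19 alternatives. Each thermogenic call was lost under some alternatives, from 1 to 10 of them for the 8 in cold control and from 7 to 12 for the 7 in knockout. Without the 3 in-between arrays 0 of all 16898 genes passed in any comparison, so no call could be kept there. For knockout against control 0 genes also passed with the 2 groups alone, without knockout 3 or without cold control 2. Ucp1 and Cox7a1 in cold control against control were lost only without the 3 in-between arrays. Over the 19 alternatives that difference of Ucp1 ran from 6.27 to 6.94. The part of these other cell types in the marker values was not tested.

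**Figure D4:**
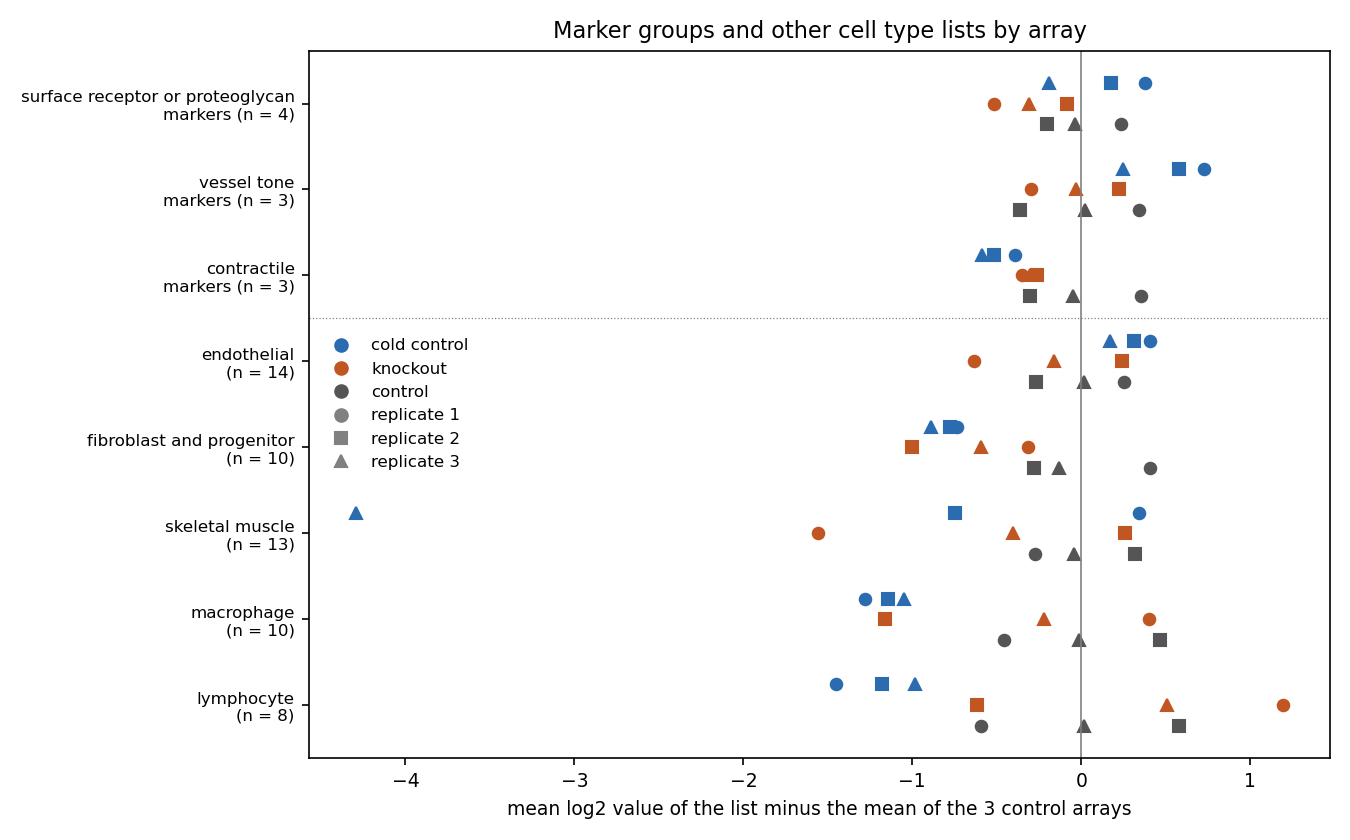
Mean log2 value of each marker group or cell type list, minus its mean over the 3 control arrays (horizontal axis), for the 9 arrays; cold control, knockout and control run from top to bottom in each row and shapes give the replicate. Vessel tone markers lie right of 0 and contractile markers left of it in cold control, and the farthest point is the skeletal muscle list of cold control 3 at -4.29.

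The 8 tested genes, markers left out, whose values ran most like the mean of the 10 scaled markers over the 9 arrays were Rtn4rl1, Arhgap21, Anxa6, Tfpi, Mest, Pkn2, Cdkl2 and Dlc1. Their correlations ran from 0.953 for Dlc1 to 0.964 for Rtn4rl1. Mest, an imprinted gene tied to fat expansion, read 8.95, 8.04 and 6.87 in cold control, 6.15, 7.69 and 7.03 in knockout and 9.30, 6.71 and 8.40 in control pads. The 3 groups overlapped for Mest. Likeness over 9 arrays is a description and says nothing of shared function.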

How the data were processed

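RNA of the inguinal pads was read on Affymetrix Mouse Transcriptome Array 1.0, 1 array a sample, per the labels. The authors deposited log2 values for 72688 rows on 9 arrays, made with Affymetrix Expression Console per the submitters' processing notes. Its version, summarisation settings and genome build are details not given in the sources used here. A log2 scale was inferred from the range of the values, 1.84 to 19.93. Precision is limited by the number of arrays.

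The platform annotation named the rows (31051 rows with 1 gene symbol), with symbols updated through RefSeq. Rows with a mean at or above the median of all row means (5.31) were kept, the brightest row per gene, which left 16898 genes. limma 3.58.1 in R 4.3.3 (lmFit and eBayes, 3 group means over 9 arrays, 6 residual and 1.23 prior degrees of freedom) gave two-sided tests with Benjamini-Hochberg adjustment over all genes, threshold 0.05; the script was checked on simulated data. A level is a row's own log2 value and is not compared between genes. The markers and all gene lists were chosen with earlier results of these data known. Named beyond the 10 markers are Zfp423, up to 4 genes of each list past the threshold or else from the 2 with the largest difference, and the 8 genes most like the markers. Outside that rule, Myh10 and Itga8 are named as nearly flat rows, and Kcnj11, Abcc8, Krt5 and Krt14 as genes below the filter. Same-numbered arrays did not deviate together (knockout with control: r = -0.46, -0.46 and 0.02 for replicates 1, 2 and 3), so numbers were not taken as pairs. Some differently numbered arrays did, with r = 0.47 for knockout 1 with control 2 and 0.45 for knockout 2 with control 1. Why they did was not tested.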

Additional observations from a re-analysis of the deposited data

How the results depend on the processing

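Across 30 marker differences and 19 alternatives, 533 of 570 values kept the direction and the side of the threshold, 30 passed only under the alternative and 7 turned direction. Array weights accounted for 27 of the 30: with them 8 markers passed for cold control against control, 9 for knockout against control and 10 for cold control against knockout, as did 8973, 11818 and 9973 of all 16898 genes; the cause was not tested. The count for cold control against knockout was also 1 without knockout 2, control 1 or control 2 (Cspg4 1.02, Tagln -0.24 and Rgs5 1.10), and 0 to 1 over all arrays left out in turn; for the other comparisons it stayed at 0. The directions that turned were small ones. Notch3 in cold control minus control was 0.031 under quantile normalization, 0.0020 after centring on the median and 0.025 with array weights; with 1 array left out it ran from -0.062 (without control 2) to 0.016 (without control 1). In knockout minus control, Cspg4 ran from -0.23 (without knockout 2) to 0.089 (without knockout 1) and was 0.017 without control 1, and the lowest value of Abcc9 was -0.021 (without knockout 2).

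The marker median with 1 array left out ran from 0.03 to 0.12 for cold control minus control, -0.20 to -0.037 for knockout minus control and 0.051 to 0.25 for cold control minus knockout; the last was 0.27 under quantile normalization and 0.24 after centring. With the replicate block the medians were 0.06, -0.14 and 0.17 and 0 markers passed in any comparison. The calls over all genes under the block were 42, 1 and 36 for cold control against control, knockout against control and cold control against knockout. The alternatives for Zfp423 and for genes of other lists were chosen after seeing the data. With 3 arrays a group, repeated values and no detection calls, the spread limits what can pass; Mcam, with an SE of 0.44, did not.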
